A study of Arabidopsis thaliana with 12 samples.

Results

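Of the 24616 genes in the table, 70 were higher after 3 h in the cold in wild-type Arabidopsis thaliana seedlings and still higher after 24 h. They also kept most of their 24 h level in the cbfs-1 mutant. They were chosen by 4 measured conditions: a mean of at least 100 normalized reads in wild type (WT, labelled Col) after 24 h of cold, a log2 rise of at least 2 in WT at 3 h, a log2 rise of at least 2 in WT at 24 h, and a mean in cbfs-1 at 24 h of at least 0.7 times that in WT. Log2 values are of the group mean plus 1. The WT responses and the genotype ratio at 24 h are therefore a description and not a result, while the cbfs-1 libraries at 0 h and 3 h took no part in the choice.

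The study holds 12 RNA-seq libraries of whole seedlings grown for 14 d at 22 °C on half-strength MS medium in long days. The groups are cbfs-1 without cold, cbfs-1 after 3 h at 4 °C, cbfs-1 after 24 h at 4 °C, and WT at the same 0 h, 3 h and 24 h, with 2 libraries each. Neither the lesion of cbfs-1 nor the origin of the 2 libraries of a group (separate plates or one) is stated in the labels, and p-values therefore reflect only the spread between these libraries. The labels give no clock time of harvest, and no 22 °C seedlings harvested together with the 3 h samples were analysed here, so that at 3 h against 0 h cold and time of day cannot be told apart.

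In plants, cold leads within hours to the expression of the CBF (DREB1) genes, whose AP2-type proteins bind the CRT/DRE core CCGAC in the promoters of cold-regulated genes such as COR15A. Other cold-regulated genes are reached by other factors, among them clock proteins of the CCA1, LHY and REVEILLE family, which bind the evening element AAAATATCT, and bZIP factors of the abscisic acid pathway, which bind promoters with the ABRE core ACGTG. The circadian clock itself is largely a loop of repressors whose evening genes, such as TOC1, PRR5, GI and ELF4, peak late in the day.

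The label CBF-independent holds only in the sense of the rule. CBF2 and CBF3 (symbol DREB1A in RefSeq) are themselves among the 70 genes, and CBF transcripts were present in cbfs-1, as given further on. The part of any remaining CBF protein was not tested. In the RefSeq annotation of TAIR10.1 68 of the genes are protein coding, 1 is a pseudogene (AT3G60930) and 1 is a microRNA gene (MIR167d). By annotated product the set holds 8 clock and photoperiod genes, 4 B-box and CCT proteins, 9 other transcription factors, 6 chaperone-like proteins, 9 enzymes, 3 transporters, 6 proteins of signalling and protein turnover, and 25 other or uncharacterised genes. These classes were made after the members were known.

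The 250 bases upstream of 2 of the genes are printed because they hold the evening element and because both genes are among the most abundant members. The sequences are from the RefSeq genome TAIR10.1, run 5′ to 3′ on the strand of the gene and end at the base before the annotated start. Capitals mark the evening element (AAAATATCT or its complement AGATATTTT) and the ABRE core (ACGTG or CACGT); neither printed stretch holds CCGAC. TOC1 lies at chr5:24674713-24674962 on the plus strand and GRP7 at chr2:9266558-9266807 on the minus strand.
TOC1: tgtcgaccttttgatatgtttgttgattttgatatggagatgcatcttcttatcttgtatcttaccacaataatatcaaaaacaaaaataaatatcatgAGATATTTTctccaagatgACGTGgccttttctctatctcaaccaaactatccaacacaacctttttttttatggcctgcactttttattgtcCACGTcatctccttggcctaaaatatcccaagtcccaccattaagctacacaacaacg
GRP7: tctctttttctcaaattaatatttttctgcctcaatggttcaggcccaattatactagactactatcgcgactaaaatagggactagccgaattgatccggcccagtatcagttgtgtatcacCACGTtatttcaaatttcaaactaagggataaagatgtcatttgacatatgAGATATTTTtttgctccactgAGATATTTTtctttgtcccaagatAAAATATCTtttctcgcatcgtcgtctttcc
The evening element is present in 1 copy before TOC1 and in 3 copies before GRP7.

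The sites of 5 further genes show the element in the promoters of other clock genes (FKF1 and PRR5) and of members of other classes, with 10 bases on either side and the element in capitals. They lie at chr1:25508443-25508471 (FKF1, plus strand), chr5:8358715-8358743 (PRR5, minus strand), chr5:19564049-19564077 (BBX8, minus strand), chr2:16765611-16765639 (AT2G40130, plus strand) and chr5:24102651-24102679 (ZAT12, symbol RHL41 in RefSeq, plus strand).
FKF1: tgagtaggctAGATATTTTctcggaatat
PRR5: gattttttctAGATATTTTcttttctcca
BBX8: tttttaggcaAGATATTTTgttcattcat
AT2G40130: aatatcaatgAGATATTTTcttaggagta
ZAT12: atatccaaatAAAATATCTttaaaaagaa
Counted from the annotated start, the first base of the first copy lies at -186 in FKF1, -187 in PRR5, -235 in BBX8, -88 in AT2G40130 and -153 in ZAT12. ZAT12 carries the element in the direction of transcription and the other 4 carry it reversed.

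In windows of 250 bases before and 50 bases after the annotated start, searched on both strands, 16 of the 70 genes held the evening element, which is 22.9%. The share was 2.92% over 24384 promoters of genes in the table. It was 28.9% among the 38 genes that met the same WT conditions but lay below 0.7 of WT in cbfs-1 at 24 h, 3.64% among 55 genes that rose by a log2 of at least 2 at 3 h and were below 1 at 24 h in WT (transiently induced), and 10.1% among 79 genes below 1 at 3 h and at least 2 at 24 h in WT and held in cbfs-1 (late induced). The CRT/DRE core CCGAC was in 14.3% of the 70 promoters, 19 of the 38 reduced in cbfs-1, 27.3% of the transient, 11.4% of the late and 15.5% of all promoters. The ABRE core ACGTG was in 48.6% of the 70 genes, 52.6% of the 38 reduced in cbfs-1, 40.0% of the transient, 34.2% of the late and 27.6% of all promoters. The G-box CACGTG, which contains the ABRE core, was in 17.1% of the 70 genes, 18.4% of the 38 reduced in cbfs-1, 14.5% of the transient, 10.1% of the late and 8.21% of all promoters. The CAMTA core CGCG was in 18.6% of the 70 genes, 13.2% of the 38, 38.2% of the transient, 8.86% of the late and 13.6% of all promoters. A W-box (TTGACC or TTGACT) was in 27.1% of the 70 genes, 31.6% of the 38, 56.4% of the transient, 53.2% of the late and 32.6% of all promoters. These matches are descriptions of sequence, not binding sites.

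**Figure D1:**
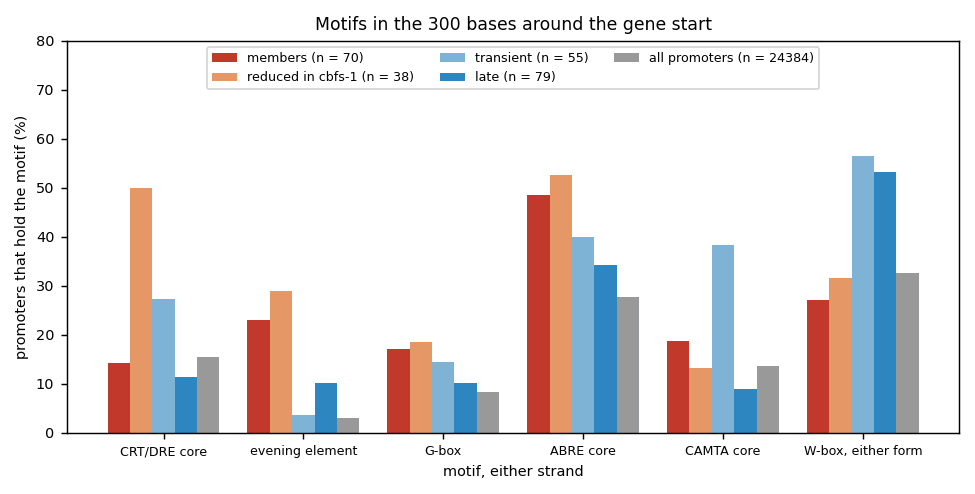
Share of promoters (y axis, percent) with each of 6 motifs (x axis) on either strand of the 300 bases around the annotated start. Bars are the 70 sustained genes held in cbfs-1 (members), the 38 sustained genes reduced in cbfs-1, the transient genes, the late genes and all promoters; the evening element bar of the members is at 22.9% and that of all promoters at 2.92%, while the CRT/DRE bars are at 14.3% and 15.5%.

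The 16 genes with an evening element included GRP7, PRR5, TOC1, FKF1, BBX8, ABF1, AIF1, ZAT12, HSFA8, DREB2A, AT4G33980, AT1G56300, AT2G40130, AT4G16146 and AT1G54217. They included 5 of the 8 clock and photoperiod genes and 5 of the 9 other transcription factors, but 0 of the 9 enzymes, 0 of the 3 transporters and 0 of the 6 signalling genes. An ABRE core was also present in 9 of the 16, beside 34 of all 70, and a CRT/DRE core in 2, beside 10 of all 70. In 6 genes the element occurred more than once, and in 4 the first copy lay at or after the start. Of the 70 promoters, 23 held none of these 3 motifs, and the same count was not made over all promoters.

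The deposited values are read counts divided by a size factor for each library, called normalized reads below. Library totals were 16849042 to 22800552 reads, so that 3 reads, taken as the floor of detection, correspond to 2.46 to 3.28 normalized reads. All 70 genes passed the filter for the test (at least 10 normalized reads in at least 2 libraries), as did 20666 genes in all. Whether reads were counted by strand is not stated in the labels, and 17 of the 70 genes overlap another annotated gene, 16 of them only on the opposite strand, so their counts are uncertain. CBF1, CBF2 and CBF3 are closely related neighbouring genes, and how reads that match more than 1 of them were counted is not stated. Their counts are therefore uncertain as well, and CBF3 is also among the 17. In whole seedlings, fewer cells of a type and less RNA per cell cannot be told apart.

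In cbfs-1, 64 of the 70 genes rose at 3 h against 0 h (limma on log2(value + 1), Benjamini-Hochberg adjusted p below 0.05 over 20666 genes). Of all tested genes 6.43% rose and 2.41% fell, 8.85% in either direction. None of the 70 fell by limma, edgeR or DESeq2, and all 70 estimates were above 0. The log2 change of the 70 genes ran between 1.21 and 9.13 with a median of 2.84, beside a median of -0.02 over all tested genes, and 61 of the 70 had a change of at least 2. In all 70, both cbfs-1 libraries at 3 h lay above both at 0 h, which held for 24.8% of all tested genes. The spread in this test came from all 12 libraries, those of the rule included. With only the 4 cbfs-1 libraries at 0 h and 3 h the count was 60, beside 3.6% of all tested genes called higher. Without CBF2 and CBF3 the count over all 12 libraries was 62 of 68. Among the sets that share the WT libraries of the rule, the test called 31 of the 38 reduced in cbfs-1 (median 2.18), 51 of the 55 transient (median 2.29) and 12 of the 79 late genes (median 0.36); these are listed side by side and differences between sets were not tested.

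The 6 genes that missed the threshold were WCRKC1, a thioredoxin-like protein (adjusted p = 0.162), AT5G49015 (0.149), AT1G54217 (0.149), AT2G38465 (0.0666), AT4G16146 (0.0625) and AT1G17665 (0.0622), all by limma. WCRKC1 had 422 and 149.9 normalized reads in cbfs-1 at 3 h, against 103 and 39.8 at 0 h, in the order replicate 1 and replicate 2 that is kept throughout. Both libraries at 3 h were above both at 0 h, and at each time replicate 1 was more than 2 times replicate 2. Libraries with the same replicate number deviated together among the 0 h and 3 h groups, and with the replicate number as a block all 70 genes were called, beside 2025 genes called higher (9.8%) and 1038 called lower over all tested genes. Leaving out 1 library gave 59 calls without cbfs-1 0 h replicate 1, 53 without cbfs-1 0 h replicate 2, 50 without cbfs-1 3 h replicate 1 and 67 without cbfs-1 3 h replicate 2.

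**Figure D2:**
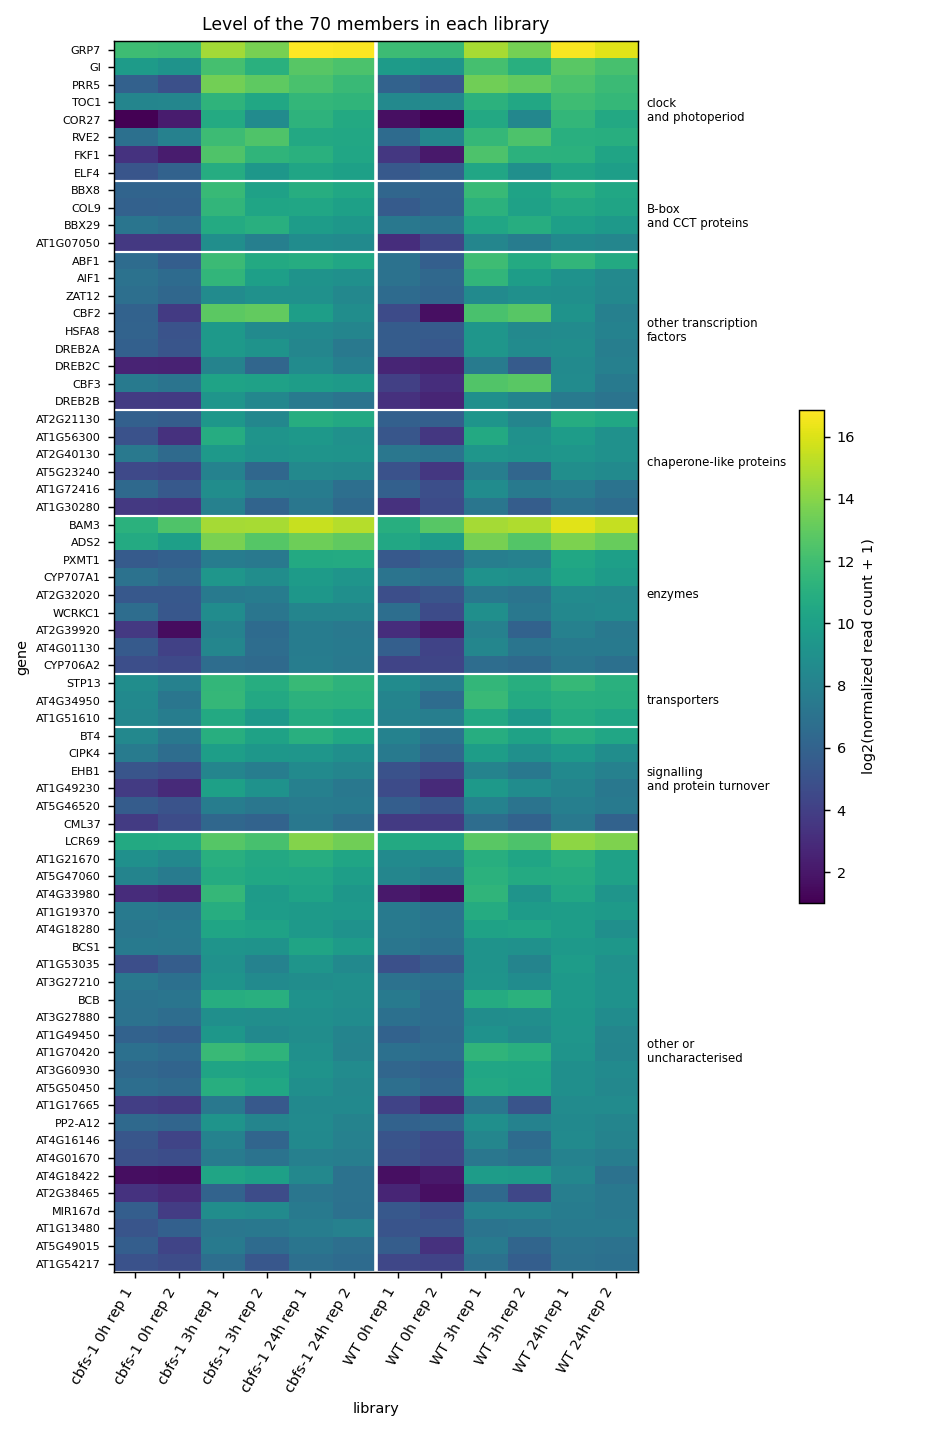
Level of each of the 70 genes (rows, grouped by class) in each of the 12 libraries (columns, cbfs-1 on the left, WT on the right, times from 0 h to 24 h), as log2(normalized read count + 1) on the colour scale. The 0 h columns are the darkest of each genotype, the highest row is GRP7, and CBF3 is the row where the 3 h columns of the genotypes differ most.

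The clock and photoperiod genes included the largest change of the set. All 8 rose in cbfs-1 at 3 h, with a median log2 change of 4.63. FKF1, the blue-light receptor and F-box protein of photoperiodic flowering, had 9.31 and 3.79 normalized reads at 0 h, 5790.4 and 2678 at 3 h, then 2136 and 1350.0 at 24 h in cbfs-1. In WT the same gene had 10.9 and 3.25 at 0 h, 5505 and 2347 at 3 h, then 2214 and 1239 at 24 h. It was close to the floor without cold and high in all 4 libraries at 3 h, and its cbfs-1 change of 9.13 ± 0.62 (SE) was the highest of the 70 genes (adjusted p = 5.31e-05, limma).

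PRR5, a pseudo-response regulator that represses morning clock genes, had 61.0 and 28.4 at 0 h, 11265 and 7909 at 3 h, then 5089 and 3384 at 24 h in cbfs-1. WT had 63.3 and 39.1 at 0 h, 10904 and 8305 at 3 h, then 5249 and 3564 at 24 h. The 3 h libraries were the highest in each genotype and the genotypes overlapped at every time. The log2 change in cbfs-1 at 3 h was 7.79 ± 0.38 (adjusted p = 1.46e-05, limma).

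COR27, a small cold-induced protein that represses evening clock genes, had 1.03 and 3.79 normalized reads at 0 h, 1673 and 402 at 3 h, then 2479.9 and 1627 at 24 h in cbfs-1. Its WT libraries held 2.18 and 1.08 at 0 h, 1518 and 326 at 3 h, then 2899 and 1530.3 at 24 h. The 0 h values are 1 and 4 reads in cbfs-1, so the ratio of 3 h to 0 h in cbfs-1, 414, has a 95% counting interval of 177 to 1277 (exact, counting error only). At 3 h replicate 1 was above replicate 2 in both genotypes, and every 24 h library was above its same-numbered library at 3 h. The limma change at 3 h in cbfs-1 was 8.04 ± 0.81 (adjusted p = 0.000394).

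TOC1, the evening pseudo-response regulator of the core loop, started from a higher level, with 301 and 311 at 0 h, 2525 and 1411 at 3 h, then 2952 and 2699 at 24 h in cbfs-1. In WT it had 347 and 352 at 0 h, 2384 and 1473 at 3 h, then 3853 and 3028 at 24 h. It rose by 2.62 ± 0.27 on the log2 scale in cbfs-1 at 3 h (adjusted p = 0.000476, limma), and both genotypes were higher at 24 h than at 3 h without overlap. GI, a large protein that links the clock to photoperiodic flowering, had 4671 and 2149 in cbfs-1 at 3 h, against 834 and 576 at 0 h, a log2 change of 2.19 ± 0.44 (adjusted p = 0.0145, limma). ELF4, a subunit of the evening complex that represses gene expression at dusk, had 1805 and 665 at 3 h, against 36.2 and 62.5 at 0 h in cbfs-1, a log2 change of 4.50 ± 0.54 (adjusted p = 0.00101, limma).

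RVE2, a MYB-like protein of the REVEILLE family, differed from the other 7 clock and photoperiod genes in its replicates at 3 h. It had 114 and 247 at 0 h, 3725 and 5673 at 3 h, then 1551 and 1471 at 24 h in cbfs-1. The WT libraries held 92.8 and 325 at 0 h, 3055 and 5536 at 3 h, then 2104 and 1935 at 24 h. Replicate 2 was the higher library at 0 h and 3 h in both genotypes, where replicate 1 was the higher one for most of the 70 genes. Its cbfs-1 change at 3 h was 4.77 ± 0.55 (adjusted p = 0.000829, limma).

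GRP7, a glycine-rich RNA-binding protein and clock output gene, was the most abundant of the 70 at 24 h per length of transcript, with a mean of 97747 normalized reads per kb in cbfs-1 and 77461 in WT. Its libraries held 3938 and 3635 at 0 h, 25413 and 12336 at 3 h, then 118298 and 109452 at 24 h in cbfs-1. WT held 3830.0 and 3514 at 0 h, 28168 and 12113 at 3 h, then 108369 and 72114 at 24 h. The level climbed at each time in every same-numbered series, and the 24 h libraries were far above those at 3 h. The log2 change in cbfs-1 at 3 h was 2.23 ± 0.40 (adjusted p = 0.00839, limma). Without cbfs-1 0 h replicate 2 or cbfs-1 3 h replicate 1, GRP7 and GI no longer passed the threshold, and over all alternatives their adjusted p reached 0.0712 and 0.119.

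**Figure D3:**
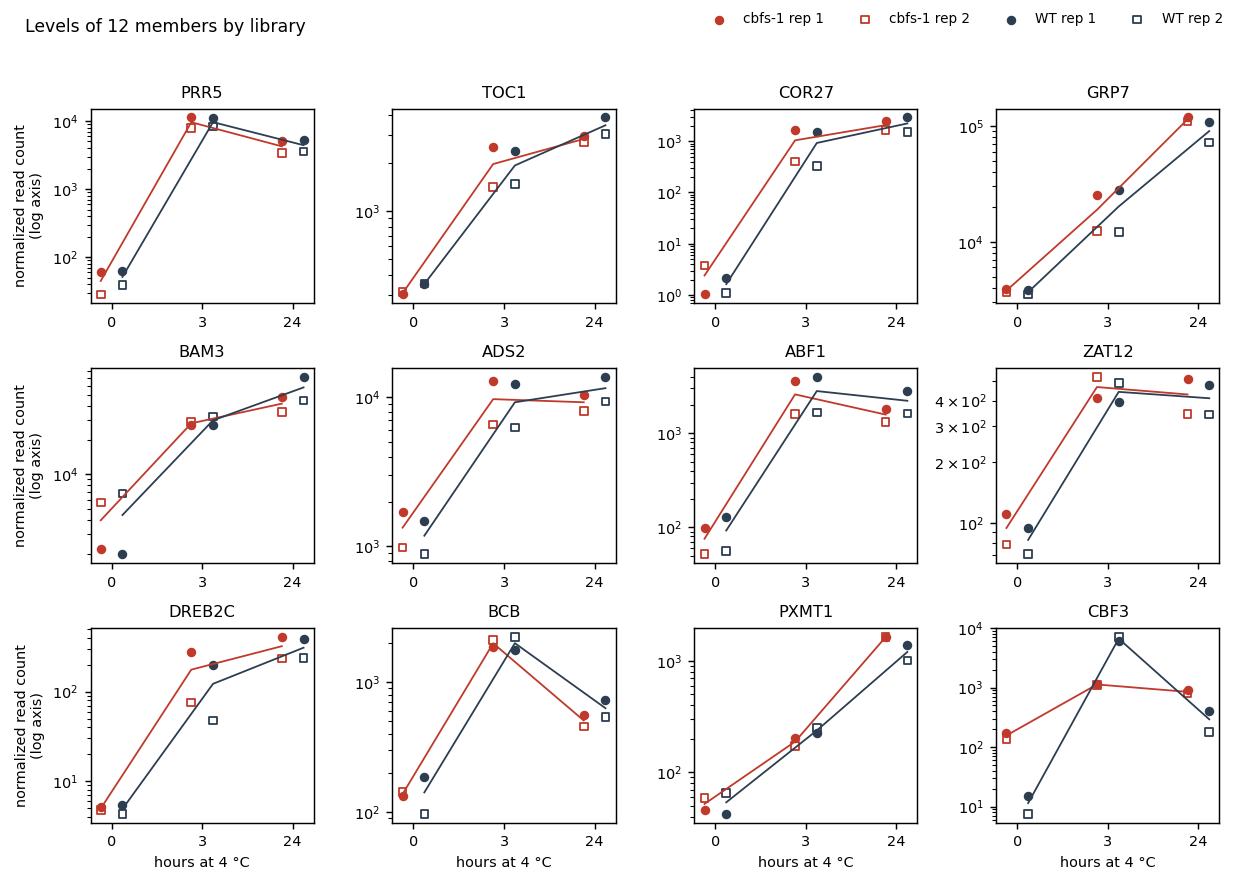
Normalized read counts (y axis, log scale) of 12 of the 70 genes at 0, 3 and 24 h at 4 °C (x axis) in cbfs-1 (red) and WT (dark). Filled circles are replicate 1, open squares replicate 2, and lines join group means; the genotypes lie on each other in most panels, whereas CBF3 is lower in cbfs-1 at 3 h and higher at 0 h and 24 h, and PXMT1 climbs furthest after 3 h.

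The wider clock lists were read from the same test in cbfs-1 at 3 h. The test called 9 of 11 evening clock genes higher, and 2 missed it, with a median log2 change of 2.62, and 6 of the 11 are among the 70. COR28 was planned for this list but is not counted, because its symbol and locus were not paired. Whether it is among the 70 under its locus alone is therefore not given by these counts. The non-members LUX, a DNA-binding subunit of the evening complex, ELF3, its scaffold, and BOA, a relative of LUX, changed by 3.46 ± 0.41, 1.38 ± 0.17 and 1.34 ± 0.26 (log2 ± SE), and PRR3 (1.05 ± 0.76) and ZTL (-0.16 ± 0.10) did not pass. LUX missed membership at 24 h in WT, with a log2 rise of 1.99. Of 10 morning clock genes, RVE2 and PRR9 (1.97 ± 0.28) rose and 8 did not pass, CCA1 (0.29 ± 0.63) and LHY (-0.73 ± 1.12) among them, with a list median of 0.31.

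The B-box and CCT proteins, regulators of light and flowering responses, all rose in cbfs-1 at 3 h. BBX8, also a CONSTANS-like protein, had 3301 and 1096 at 3 h, against 68.3 and 68.1 at 0 h, a log2 change of 4.78 ± 0.53 (adjusted p = 0.000722, limma). COL9, a repressor of flowering, had 2729 and 1262 at 3 h, against 61.0 and 64.4 at 0 h, and changed by 4.87 ± 0.40 (adjusted p = 0.00012, limma). BBX29 had 1654 and 2019 at 3 h, against 143 and 113 at 0 h, and changed by 3.84 ± 0.22 (adjusted p = 2.62e-05, limma). In BBX8 and COL9 replicate 1 at 3 h was more than 2 times replicate 2, while in BBX29 replicate 2 was the higher library. Of 18 tested genes in the B-box list, 7 rose, 1 fell (BBX15, -0.99 ± 0.20) and 10 did not pass; BBX15 passed when cbfs-1 3 h replicate 2 was left out, but not without any other 1 of these libraries.

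All 9 other transcription factors rose at 3 h in cbfs-1, with a median log2 change of 3.94, and only DREB2C was higher in WT at 24 h than at 3 h. ABF1, a bZIP factor that binds the ABRE, had 99.3 and 52.1 at 0 h, 3589 and 1605 at 3 h, then 1835 and 1330.1 at 24 h in cbfs-1. The WT values were 129 and 56.4 at 0 h, 3964 and 1668 at 3 h, then 2819 and 1621 at 24 h. Its cbfs-1 change at 3 h was 5.04 ± 0.56 (adjusted p = 0.000748, limma), with replicate 1 above replicate 2 in all 6 groups. AIF1, a helix-loop-helix protein that counters brassinosteroid growth responses, had 2829.8 and 1014 at 3 h, against 127 and 93.7 at 0 h in cbfs-1, and in WT its 24 h mean was 0.245 of its 3 h mean. HSFA8, a heat shock factor, had 730.3 and 380.0 at 3 h, against 67.2 and 32.2 at 0 h in cbfs-1, and ZAT12, a zinc-finger protein of oxidative and cold stress, 411 and 522 against 111 and 78.6. ZAT12 changed by 2.30 ± 0.27 (adjusted p = 0.000849, limma), and its 24 h libraries overlapped those at 3 h in both genotypes.

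The DREB2 factors, AP2 proteins of drought and heat responses that bind the same core as the CBFs, were represented by 3 genes. DREB2A had 59.0 and 36.0 at 0 h, 784 and 560.1 at 3 h, then 310.4 and 174 at 24 h in cbfs-1, with a log2 change of 3.82 ± 0.40 at 3 h (adjusted p = 0.00048, limma). DREB2B had 12.4 and 12.3 at 0 h, 608 and 321 at 3 h, then 181 and 137 at 24 h in cbfs-1, with a log2 change of 5.05 ± 0.35 (adjusted p = 5.64e-05, limma). DREB2C went the other way after 3 h: it had 5.17 and 4.73 at 0 h, 277 and 75.4 at 3 h, then 409.6 and 234 at 24 h in cbfs-1, and changed by 4.61 ± 0.69 at 3 h (adjusted p = 0.00323, limma). In a list of 17 early cold transcription factors 14 rose and 3 did not pass, and 7 passed without cbfs-1 0 h replicate 2 as without cbfs-1 3 h replicate 1; ZAT12 and DREB2A are its only members among the 70.

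CBF2 and CBF3 differed from each other in cbfs-1. CBF2 had 63.1 and 12.3 at 0 h, 7569.9 and 8377 at 3 h, then 941 and 448 at 24 h in cbfs-1. In WT it had 24.0 and 2.17 at 0 h, 5093 and 6769 at 3 h, then 569 and 239 at 24 h. At 3 h both cbfs-1 libraries were above both WT libraries, and the log2 change against 0 h was 8.09 ± 0.95 (adjusted p = 0.000908, limma). CBF3 had 175 and 138 at 0 h, 1158 and 1095 at 3 h, then 893 and 799 at 24 h in cbfs-1. The WT libraries held 15.3 and 7.59 at 0 h, 6133 and 7126 at 3 h, then 404 and 180.3 at 24 h. Its cbfs-1 libraries were above WT at 0 h and 24 h and below WT at 3 h, with no overlap at any time. Its mean at 3 h in cbfs-1 was 0.170 of that in WT, and its ratio at 24 h, 2.90, was the highest of the 70 genes. In cbfs-1 CBF3 still rose, by 2.85 ± 0.36 (adjusted p = 0.00135, limma). Of the CBF family list all 4 genes rose in cbfs-1 at 3 h; CBF1 had 1540 and 2475 normalized reads at 3 h, against 1.03 and 1.89 at 0 h.

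Of the 9 enzymes 8 rose in cbfs-1 at 3 h, 5 of them also without cbfs-1 3 h replicate 1, and 8 had a higher WT mean at 24 h than at 3 h. BAM3 (symbol CT-BMY in RefSeq), the chloroplast beta-amylase that releases maltose from starch, had 2225 and 5653 at 0 h, 27216 and 28706 at 3 h, then 47913 and 35363 at 24 h in cbfs-1. WT had 1994 and 6773 at 0 h, 27262 and 32160.4 at 3 h, then 71168 and 44403 at 24 h. Per length it was second to GRP7, with a 24 h mean of 19800 normalized reads per kb in cbfs-1 and 27478 in WT. The cbfs-1 change at 3 h was 2.98 ± 0.55 (adjusted p = 0.00934, limma), and it did not pass without cbfs-1 0 h replicate 1 or without cbfs-1 3 h replicate 1 (highest adjusted p over all alternatives 0.0638). It was the only gene of a starch breakdown list of 12 that passed.

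ADS2, an acyl-lipid desaturase of chilling acclimation, had 1688 and 982 at 0 h, 12892 and 6559.5 at 3 h, then 10437 and 8095 at 24 h in cbfs-1, and rose by 2.84 ± 0.43 at 3 h (adjusted p = 0.00344, limma). CYP707A1, an abscisic acid 8′-hydroxylase that breaks the hormone down, had 657 and 437 at 3 h, against 126 and 83.3 at 0 h in cbfs-1, and rose by 2.37 ± 0.26 (adjusted p = 0.00072, limma). In the list of 10 genes of abscisic acid synthesis and breakdown, 3 rose (CYP707A1, CYP707A3 and NCED5), 1 fell (ABA2, -0.65 ± 0.17) and 6 did not pass. With the replicate block 6 rose, and with a filter of at least 50 normalized reads in at least 2 libraries 2 rose. NCED5 is a low gene, with 0 and 0.947 normalized reads at 0 h, under the floor, and 13.8 and 11.3 at 3 h in cbfs-1. The call of ABA2 was lost without any 1 of the 4 cbfs-1 libraries compared. PXMT1, an S-adenosylmethionine-dependent methyltransferase, had 45.5 and 58.7 at 0 h, 205 and 173 at 3 h, then 1624 and 1644 at 24 h in cbfs-1. The WT values were 42.6 and 65.1 at 0 h, 225 and 249.7 at 3 h, then 1397 and 1006 at 24 h. It had the largest climb after 3 h of the 70, with a 24 h mean 5.06 times the 3 h mean in WT, and it rose by 1.84 ± 0.22 in cbfs-1 at 3 h (adjusted p = 0.00101, limma).

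The genes classed as chaperone-like by annotated product all rose in cbfs-1 at 3 h, with a median log2 change of 2.93. Most have a DnaJ domain of the kind that recruits HSP70. AT2G40130 is in this class only for its annotated Clp-N motif, and whether its protein acts as a chaperone was not tested. Of the 6, 3 passed without cbfs-1 0 h replicate 1, 3 without cbfs-1 0 h replicate 2 and 3 without cbfs-1 3 h replicate 1. AT1G56300 had 1822 and 601 at 3 h, against 31.0 and 8.52 at 0 h in cbfs-1, a change of 5.91 ± 0.79 (adjusted p = 0.00177, limma). AT2G21130, a cyclophilin-type prolyl isomerase, had 56.9 and 50.2 at 0 h, 666 and 319 at 3 h, then 1884 and 1520.3 at 24 h in cbfs-1, and so was still climbing, as in WT, where its 24 h mean was 3.56 times the 3 h mean. AT1G30280 had 248 and 67.9 at 3 h, against 11.4 and 10.4 at 0 h in cbfs-1; it passed (change 3.46 ± 0.69, adjusted p = 0.0133, limma) but did not do so without cbfs-1 0 h replicate 1, without cbfs-1 0 h replicate 2 or without cbfs-1 3 h replicate 1. AT1G72416 likewise passed with all libraries (2.29 ± 0.57, adjusted p = 0.0368, limma) and was lost without any 1 of these 3.

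Among the transporters and signalling genes, all 9 rose in cbfs-1 at 3 h, but only 5 passed without cbfs-1 0 h replicate 2 and 4 without cbfs-1 3 h replicate 1. STP13 (symbol MSS1 in RefSeq), a hexose and proton symporter, had 432 and 252 at 0 h, 2922 and 1898 at 3 h, then 3234 and 2420.0 at 24 h in cbfs-1. In WT it had 406 and 225 at 0 h, 2955 and 1958 at 3 h, then 3170.3 and 2118 at 24 h. It rose by 2.83 ± 0.37 (adjusted p = 0.00163, limma) and its 24 h libraries overlapped those at 3 h in WT. AT1G49230, a RING-domain protein of the kind that acts in ubiquitin transfer, had 1044 and 536 at 3 h, against 12.4 and 6.63 at 0 h in cbfs-1, a change of 6.21 ± 0.58 (adjusted p = 0.000275, limma). CML37, a calmodulin-like calcium sensor, had 76.8 and 66.9 at 3 h, against 12.4 and 24.6 at 0 h in cbfs-1, a change of 1.97 ± 0.47 (adjusted p = 0.0293, limma), which was not called without cbfs-1 0 h replicate 1, without cbfs-1 3 h replicate 1 or without cbfs-1 3 h replicate 2, nor by edgeR.

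Of the 25 other or uncharacterised genes 20 rose in cbfs-1 at 3 h. AT4G18422 had 2.07 and 1.89 at 0 h, 1281 and 1039 at 3 h, then 333 and 126 at 24 h in cbfs-1. The WT libraries held 2.18 and 3.25 at 0 h, 882 and 810.4 at 3 h, then 331 and 128 at 24 h. It was at the floor without cold in both genotypes, with 2 and 2 reads in cbfs-1, so that the ratio of 3 h to 0 h there, 585, has a 95% counting interval of 228 to 2150. AT4G33980 had 3053 and 843 at 3 h, against 7.24 and 5.68 at 0 h in cbfs-1, a change of 7.76 ± 0.75 (adjusted p = 0.000305, limma). LCR69, a small cysteine-rich protein of the defensin type and the next in level per length after BAM3, had 1585 and 1660.2 at 0 h, 6543 and 4863 at 3 h, then 15222 and 11132 at 24 h in cbfs-1, and rose by 1.80 ± 0.20 at 3 h (adjusted p = 0.000688, limma). AT1G70420 was the gene of this class with the steepest decline after 3 h: it had 114 and 94.7 at 0 h, 3485 and 2573 at 3 h, then 493 and 275 at 24 h in cbfs-1, and in WT its 24 h mean was 0.187 of the 3 h mean.

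The smallest changes in cbfs-1 at 3 h were those of AT1G54217, BCS1, AT3G27210, AT1G13480 and LCR69. AT1G54217 had 107 and 39.6 at 3 h, against 31.0 and 24.6 at 0 h in cbfs-1, a log2 change of 1.21 ± 0.45 that did not pass. BCS1, an AAA-type ATPase, had 602 and 567 at 3 h, against 178 and 168 at 0 h and changed by 1.75 ± 0.18 (adjusted p = 0.000404, limma). AT3G27210 changed by 1.78 ± 0.26 (adjusted p = 0.00262, limma) and AT1G13480 by 1.80 ± 0.21 (adjusted p = 0.00084, limma). MIR167d, the precursor gene of a microRNA that targets auxin response factors, had 433 and 389 at 3 h, against 52.8 and 13.3 at 0 h in cbfs-1, and rose by 3.89 ± 0.49 (adjusted p = 0.00133, limma); these are reads on the annotated precursor and not the mature microRNA.

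**Figure D4:**
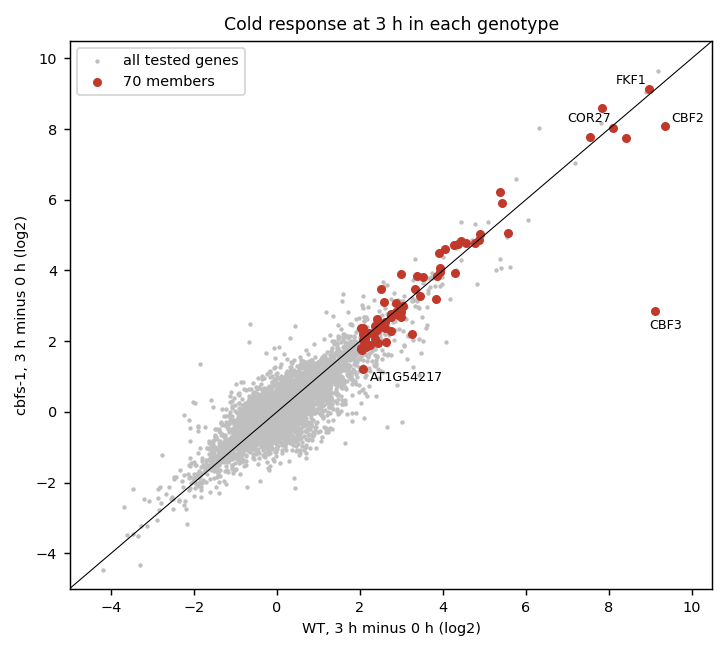
Log2 change at 3 h against 0 h in cbfs-1 (y axis) and in WT (x axis) for all 20666 tested genes (grey) and the 70 genes (red), with the line of equal change. The WT change is at least 2 for every red point because the rule demands it. The red points have changes of 1.21 to 9.13 in cbfs-1, and most lie near the line. CBF3 lies furthest from it, at 2.85 in cbfs-1 against 9.13 in WT, and CBF2 lies below it, at 8.09 against 9.36.

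The comparison of the genotypes at 3 h shares the WT 3 h libraries with the rule and carries no test. The log2 difference of cbfs-1 from WT at 3 h had a median of 0.10 and ran from -2.55 (CBF3) to 0.63 (MIR167d), with 66 of the 70 within 0.5 of 0 (94.3%, beside 94.9% of all tested genes). Both cbfs-1 libraries were below both WT libraries for 3 genes, against 12.3% of all tested genes, and above for 6 genes, against 13.1%. As ratios of means the highest were those of AT1G30280 (1.57), MIR167d (1.55), DREB2C (1.44), AT4G18422 (1.37) and ELF4 (1.35). After CBF3 the lowest were AT5G47060 (0.793), PXMT1 (0.794), AT4G16146 (0.820) and AT1G54217 (0.832). For the 38 genes below 0.7 of WT at 24 h the median difference at 3 h was -0.65, and 24 of them had both cbfs-1 libraries below both WT libraries. Before cold the median difference of the 70 genes was 0.10, with 61 within 0.5 of 0 (87.1%, beside 95% of all tested genes) and CBF3 the highest at 3.72.

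Between 3 h and 24 h the genes differed in direction. In WT 37 had a higher mean at 24 h than at 3 h and 33 a lower one, of which 30 and 33 went the same way in cbfs-1, and 7 were lower at 24 h in cbfs-1 and higher in WT. Both 24 h libraries were above both 3 h libraries for 16 genes in cbfs-1 and 18 in WT, beside 37.1% and 35.6% of all tested genes, and below for 22 in cbfs-1 and 16 in WT, beside 38.0% and 36.0%. These shares of the 70 are below those of all genes. The log2 difference of 24 h from 3 h was within 0.5 of 0 for 26 genes in cbfs-1 (37.1%) and 29 in WT (41.4%). Over all tested genes these shares were higher, at 59.8% in cbfs-1 and 59.9% in WT. The largest WT climbs after 3 h were those of PXMT1, GRP7 (4.48 times), AT1G17665 (4.44 times), AT2G38465 (3.60 times) and AT2G21130. The largest declines were those of CBF3 (0.0441), CBF2 (0.0681), AT1G70420, AIF1 and AT4G18422 (0.271). The WT libraries and the cbfs-1 24 h libraries are those of the rule, so the climbs and declines are described and not tested. Time in the cold and time of day cannot be told apart at 24 h against 3 h either.

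Replicate 1 was above replicate 2 for most of the 70 genes in each group. This held for 56 genes in cbfs-1 at 0 h, 62 at 3 h and 67 at 24 h, and for 55 at 0 h, 59 at 3 h and 69 at 24 h in WT, beside 48.1% to 52.0% of all tested genes. The median log2 ratio of replicate 1 to replicate 2 was 0.34, 0.84 and 0.41 in cbfs-1 and 0.39, 0.74 and 0.49 in WT at 0, 3 and 24 h. At 3 h the ratio was at least 2 for 26 genes in cbfs-1 and 27 in WT, and 58 genes were higher in replicate 1 in both genotypes (82.9%, against 34.4% of tested genes). Within replicate number 1 the cbfs-1 change at 3 h had a median of 3.06 and a range of 1.75 to 9.68, and within number 2 a median of 2.73 and a range of 0.66 to 9.30; it was above 0 for all 70 genes in each. What the replicate numbers share is not given in the labels.

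**Figure D5:**
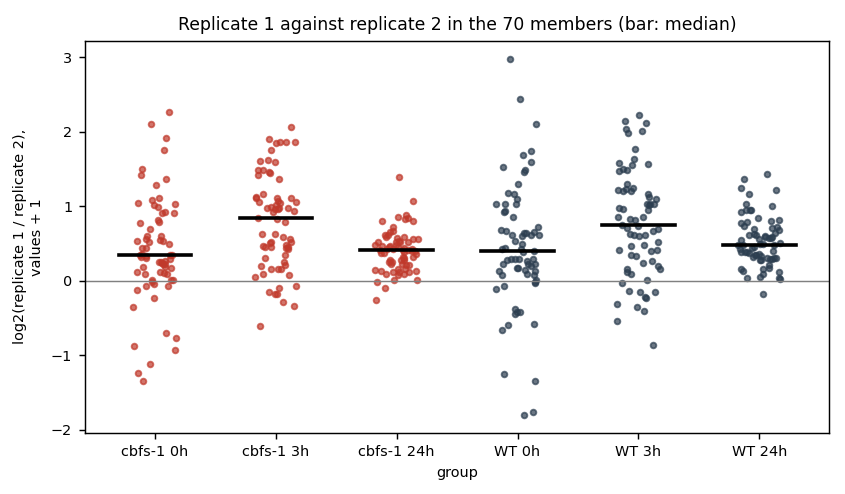
Log2 ratio of replicate 1 to replicate 2 (y axis, values plus 1) for each of the 70 genes in the 6 groups (x axis); points are genes, black bars medians and the grey line equality. Most points lie above the line in every group, and the medians at 3 h, 0.84 in cbfs-1 and 0.74 in WT, are the highest of each genotype.

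Other pathways in the same test gave a background for these genes. Of 13 CBF target genes 8 rose in cbfs-1 at 3 h, among them COR15B (4.06 ± 0.37) and ERD7 (2.97 ± 0.36), 1 fell (RAP2.1, -1.08 ± 0.25, lost without cbfs-1 3 h replicate 1 or either cbfs-1 0 h library and by edgeR) and 4 did not pass, with a median of 1.67 and no member among the 70. Of 13 tested jasmonate genes 6 rose, such as JAZ1 (2.70 ± 0.27), and 7 did not pass. No gene passed among 4 light stress genes (changes of -0.48 to 0.24), 5 root markers (-0.27 to 0.11), 5 leaf markers (-0.22 to 0.13) and 4 reference genes (-0.04 to 0.45). The summed level of the root markers was 38499 to 43607 normalized reads at 0 h, 38535 to 40522 at 3 h, then 28273 to 30331 at 24 h in cbfs-1. The leaf markers summed to 542132 to 576780.0 at 0 h, 550040.0 to 555257 at 3 h, then 541782 to 593093 at 24 h in cbfs-1. The sums hide single genes. Between 0 h and 24 h in cbfs-1, LHCB4.2 went from 51472 and 37856 to 12931 and 16473. GAPA went from 37884 and 42241 to 22269 and 28955, and LHCB2.1 was also lower at 24 h. RBCS1A overlapped between these times and LHCB1.1 was higher at 24 h. PYK10 made up most of the root sum, with 29246 and 26935 at 24 h. All 10 markers were detected in each group, and the part of the lower root marker sum at 24 h in the 24 h values was not tested.

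Several genes sat close to a threshold of the rule. Just inside the 24 h ratio of 0.7 were AT3G27210 (0.7002), AT1G53035 (0.703) and ABF1 (0.713), and just outside RbcX1 (0.689), HSFA6B (0.663) and AT4G21215 (0.662). For the level of 100 the genes inside were AT1G30280 (112), CML37 (116) and AT1G54217 (122), and those outside ABR1 (96.8), AT5G40000 (87.7) and WRKY42 (79.3). With values rescaled to the same total in every library the rule gave 67 genes, 66 of them among the 70. For the WT log2 rise at 3 h they were CYP707A1 (2.02), AT1G13480 (2.03) and AT3G27210 (2.04) inside, and AT3G54150 (1.97), PDC2 (1.96) and AT2G16890 (1.96) outside. For the rise at 24 h they were AT2G40130 (2.00), AT1G72416 (2.01) and AT1G70420 (2.02) inside, and LUX (1.99, symbol PCL1 in RefSeq), AT5G65300 (1.97) and BBX13 (1.91) outside.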

How the data were processed

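RNA-seq of 12 seedling libraries was analysed, grouped by the sample titles into 6 groups of 2. The values deposited by the authors are a normalized signal, the read count of a gene over a size factor of its library from DESeq2, as the values show (100% are whole multiples of 1 read within 0.001 of a read); all sample columns were used. Per the submitters' processing notes, the build was TAIR10 and the tools were HTSeq 0.6.0, DESeq2, TopHat2 2.1.0 and Cufflinks 2.2.1; their settings are not stated. Library totals recovered from the values were 16849042 to 22800552 reads, and counting intervals cover counting error only.

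The members, the 13 gene lists and the tests were chosen with earlier results of these data known. Members were found by the rule on group means. Because the values are not raw counts, the test was limma 3.58.1 (lmFit, contrasts, eBayes with trend) in R 4.3.3 on log2(value + 1), with 6 group means over all 12 libraries and no replicate block, for 20666 genes with at least 10 normalized reads in at least 2 libraries; a Benjamini-Hochberg adjusted p below 0.05 was a call. Only cbfs-1 at 3 h against 0 h was tested, as its libraries are outside the rule. The spread in this test was estimated over all 12 libraries, those of the rule among them. With only the 4 cbfs-1 libraries at 0 h and 3 h, 60 of the 70 were called. A change on this scale understates that of low genes. Whole reads went to edgeR 4.0.16 and DESeq2 1.42.0 as alternatives. The step was also run on simulated counts drawn independently for each library. These lacked the shared deviation of same-numbered libraries seen in the data, so the run does not cover it.

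To see whether replicate numbers pair libraries, each library's deviation from its group mean was correlated across genes between groups. Equal numbers gave 0.334 to 0.565 for the 6 possible pairs among groups at 0 h or 3 h, and the replicate block was set beside the test for these groups on that evidence alone, since the labels state no pairing. All printed changes, errors and adjusted p-values are without the block unless stated. Pairs with one 24 h group gave 0.0428 to 0.108, and the pair of both 24 h groups 0.242. Same-group libraries were not duplicates (chi-square per degree of freedom 6.21 to 24.1).

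Named genes are the 10 highest in WT at 24 h, the 10 largest and 5 smallest cbfs-1 changes at 3 h, the 5 largest WT rises and falls between 3 h and 24 h, the 5 highest and lowest genotype ratios at 3 h, list members and genes next to a threshold; other named genes (BBX8, HSFA8, WCRKC1, AT5G49015 and the further genes with an evening element) were chosen after their values were seen. Of 133 list genes 129 were used, and 4 (COR28, RVE6, OHP1 and TIP41) were left out because symbol and locus were not paired. Names and promoters came from RefSeq TAIR10.1, which had an entry for all 70 members and a symbol other than the locus for 36 of them. Python 3.11.15, numpy 2.4.6 and pandas 2.3.3 prepared tables. The promoter sequence of 1 member is not reported here.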

Additional observations from a re-analysis of the deposited data

Results flagged for a closer look

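Of the 70 genes, 5 had cbfs-1 libraries wholly on one side of WT at one time and wholly on the other side at another (7.14%, beside 7.77% of all tested genes). The changes of side were not tested, the WT libraries at 3 h and 24 h are those of the membership rule, and no explanation is given.

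CBF3 was higher in cbfs-1 than in WT at 0 h (175 and 138 normalized reads in cbfs-1, against 15.3 and 7.59 in WT) and at 24 h (893 and 799 in cbfs-1, against 404 and 180.3 in WT), while at 3 h it was lower, with a log2 difference of -2.55. PXMT1 was higher in cbfs-1 at 24 h and lower at 3 h, where the log2 difference was -0.334. AT4G18422 was higher in cbfs-1 at 3 h and lower at 0 h, with a log2 difference of -0.305 at 0 h, where all 4 values are at or under the floor of 3 reads. AT2G38465 was higher in cbfs-1 at 0 h and lower at 24 h, with a log2 difference of -0.452 at 24 h. Its 0 h values were low, 9.31 and 6.63 in cbfs-1 against 5.46 and 2.17 in WT, the last under the floor. AT1G54217 was likewise higher at 0 h and lower at 24 h, with -0.237 at 24 h.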

How the results depend on the processing

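The count of the 70 genes called higher in cbfs-1 at 3 h was 64, and 60 to 68 under another pseudocount or filter, quantile normalization, edgeR, DESeq2, the 4 cbfs-1 libraries alone or an added log2 change of at least 1. It was 50 to 67 when 1 library was left out, and 70 with a replicate block, which pairs same-numbered libraries. Over all tested genes, 1329 were called higher and 499 lower; the replicate block gave 2025 and 1038, the 4 libraries alone 744 and 207, and leaving out 1 library 524 to 1003 and 113 to 368. Of 44 named members none changed direction under any of these settings. Leaving out CBF2 and CBF3, an alternative chosen after seeing the data, gave 62 calls of 68.

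Membership moved more with the thresholds. The number of members was 43 at a 24 h ratio of at least 0.9, 125 at log2 thresholds of 1.5 and 36 at log2 thresholds of 2.5, by construction of the rule. It was 65 from replicate 1 alone and 78 from replicate 2 alone, with 55 and 53 genes shared with the 70. Differences between genotypes were not tested.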
